A study of Mus musculus with 3 samples.

Results

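The 10 immediate early genes Fos, Fosb, Jun, Junb, Jund, Egr1, Ier2, Zfp36, Btg2 and Klf6 were followed across hematopoietic stem and progenitor cells of the mouse. They were taken by gene symbol, and all 10 were found among the 31053 genes of the count matrix. The values cover the 3470 cells that the authors kept of 4108 barcodes. The cells were lineage-negative, Sca1-positive, Kit-positive (LSK) bone marrow cells, a sort that takes in blood stem cells and their first multipotent descendants. They came from 2 mice labelled Helios-deficient and 2 labelled wild type. Helios is the zinc finger transcription factor encoded by Ikzf2. Hashtag antibodies against CD45 and MHC class I marked each mouse before the cells were pooled in 1 droplet run, and tagged antibodies for the surface proteins CD150, CD48, Flt3 and CD41 were read from the same cells. The labels give no allele, age, sex or treatment, so the groups are known by genotype alone, with each mouse as 1 replicate.

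Immediate early genes are transcribed within minutes of a growth signal or a stress, without new protein synthesis, through kinases such as ERK and JNK and transcription factors that are already present in the cell. Fos and Jun family proteins pair to form the transcription factor AP-1, and other members of the class switch the response off again, in part by removing messenger RNA. In blood progenitors these genes are known to respond to cytokines, to tissue dissociation and to the exit from quiescence.

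Promoter windows from RefSeq (GRCm38) matched 8 of the 10 genes, and Egr1 and Ier2 had no entry in the table. Each window held the 250 bases before the start site. The windows of the genes that the comparisons turned on are shown, with Btg2 and Zfp36 first as the genes that differed between genotypes, then Klf6 and Jund, which differed between surface-defined states. They are written 5′ to 3′ on the strand of the gene, with the letters TGACG (the core of the cyclic AMP response element, either strand) and the CArG box, the recognition element of serum response factor, in capitals.
Btg2: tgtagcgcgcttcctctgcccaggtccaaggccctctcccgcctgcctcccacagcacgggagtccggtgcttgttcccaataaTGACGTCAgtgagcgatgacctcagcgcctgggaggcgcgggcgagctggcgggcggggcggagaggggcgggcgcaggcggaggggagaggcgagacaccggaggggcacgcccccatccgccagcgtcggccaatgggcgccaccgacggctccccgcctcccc
Zfp36: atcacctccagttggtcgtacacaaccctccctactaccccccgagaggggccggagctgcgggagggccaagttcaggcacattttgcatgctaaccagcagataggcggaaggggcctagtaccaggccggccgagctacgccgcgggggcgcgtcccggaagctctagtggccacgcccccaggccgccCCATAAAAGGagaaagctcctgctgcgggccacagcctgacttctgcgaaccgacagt
Klf6: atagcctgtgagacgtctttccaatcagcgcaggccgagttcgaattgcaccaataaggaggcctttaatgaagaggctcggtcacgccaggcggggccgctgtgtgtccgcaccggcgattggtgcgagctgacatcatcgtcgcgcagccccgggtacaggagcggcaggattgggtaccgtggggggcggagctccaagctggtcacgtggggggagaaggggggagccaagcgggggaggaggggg
Jund: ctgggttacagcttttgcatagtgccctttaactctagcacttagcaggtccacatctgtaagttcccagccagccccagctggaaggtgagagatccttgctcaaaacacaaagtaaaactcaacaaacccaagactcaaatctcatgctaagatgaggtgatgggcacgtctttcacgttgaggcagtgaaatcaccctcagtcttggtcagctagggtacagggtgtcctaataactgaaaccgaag

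The Btg2 window (chr1:134079156-134079405, minus strand) held the full palindrome TGACGTCA, starting at position -166. Those 8 letters were present in 1.62% of the 27025 windows searched. This core was present in the windows of Fos, Fosb, Junb and Btg2, 4 of 8, against 17.9% of all windows, and the full palindrome counts here as a core on both strands. The Zfp36 window (chr7:28379229-28379478, minus strand) held a CArG box starting at position -58, as did 1.4% of all windows, and it was the single CArG box in the 8 windows. The Klf6 window (chr13:5861239-5861488, plus strand) and the Jund window (chr8:70697489-70697738, plus strand) held neither. The GC box GGGCGG was found in 6 of the 8 windows (Fos, Fosb, Jun, Zfp36, Btg2 and Klf6) against 32.9% of all windows. The AP-1 letters TGANTCA were in none of the 8, against 6.87% of all. The genes lie at chr1:134074865-134079155 (Btg2), chr7:28376784-28379228 (Zfp36), chr13:5861489-5870393 (Klf6) and chr8:70697739-70700616 (Jund) in GRCm38. All motifs were searched on both strands. These matches describe the letters alone.

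There were 557 and 824 kept cells from Helios-deficient mouse 1 and 2 and 1175 and 914 from wild-type mouse 1 and 2, with 5729987 to 10317599 UMIs (unique molecules counted) per mouse and a median of 7599 to 8670 UMIs per cell. Kit and Ly6a (Sca1) were present at 82.5 to 94.8 and 128 to 157 CPM (UMIs of a gene, scaled to the same total in every mouse), and the lineage genes Cd3e and Ly6g had 0 UMIs. Ikzf2 levels were 73.6 and 82.7 CPM for the Helios-deficient pair, against 70.6 and 67.7 CPM in the wild-type pair. Which exons were deleted is not given, and counts from the transcript end need not fall with an internal deletion, so this level tests neither the deletion nor the hashtag labels. Genes were tested between genotypes on counts summed per mouse (edgeR quasi-likelihood test, adjusted by Benjamini-Hochberg over all genes tested, threshold 0.05). The p-values rest on the spread between 2 mice per genotype, which the fit draws toward a trend over all genes tested. In sums over a mouse, fewer cells of a kind and less RNA per cell cannot be told apart.

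Between genotypes, 2 of the 10 genes fell in Helios-deficient mice and none rose. These were Btg2 and Zfp36, both of which act to shorten the life of messenger RNA. Over all genes, 92 of 11592 were called (0.794%), 42 higher (0.362%) and 50 lower (0.431%), and leaving out Helios-deficient mouse 1 or 2 raised the count to 306 or 565. The median log2 fold change of the 10 genes was −0.09, beside −0.00029 over all genes tested.

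Btg2 encodes an antiproliferative protein of the BTG and TOB family that binds the deadenylase complex. It was at 16.6 and 18.5 CPM in the Helios-deficient pair, against 26.1 and 32.8 CPM in the wild-type pair. Both Helios-deficient mice lay below both wild-type mice. Its log2 fold change came to −0.72 (SE 0.14, edgeR adjusted p = 0.0113, n = 2 mice a genotype), with 17.5 ± 1.37 against 29.4 ± 4.73 CPM (mean ± SD).

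Zfp36 encodes tristetraprolin, which binds AU-rich elements and recruits the machinery of messenger decay. It was at 12.2 and 9.38 CPM in the Helios-deficient pair, against 16.2 and 19.97 CPM in the wild-type pair. Again the pairs did not overlap. Its log2 fold change was −0.76 (SE 0.17, edgeR adjusted p = 0.0373), from 70 and 79 UMIs in the Helios-deficient pair, and 167 in each wild-type mouse.

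Neither call held in every setting. With wild-type mouse 2 left out, Btg2 had an adjusted p of 0.0836 and Zfp36 one of 0.191, and without Helios-deficient mouse 2 that of Zfp36 was 0.0743. DESeq2 gave 0.283 and 0.891. Both genes were lower in Helios-deficient mice in every setting run, by 0.51 to 0.99 for Btg2 and by 0.53 to 0.94 for Zfp36 on the log2 scale.

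**Figure D1:**
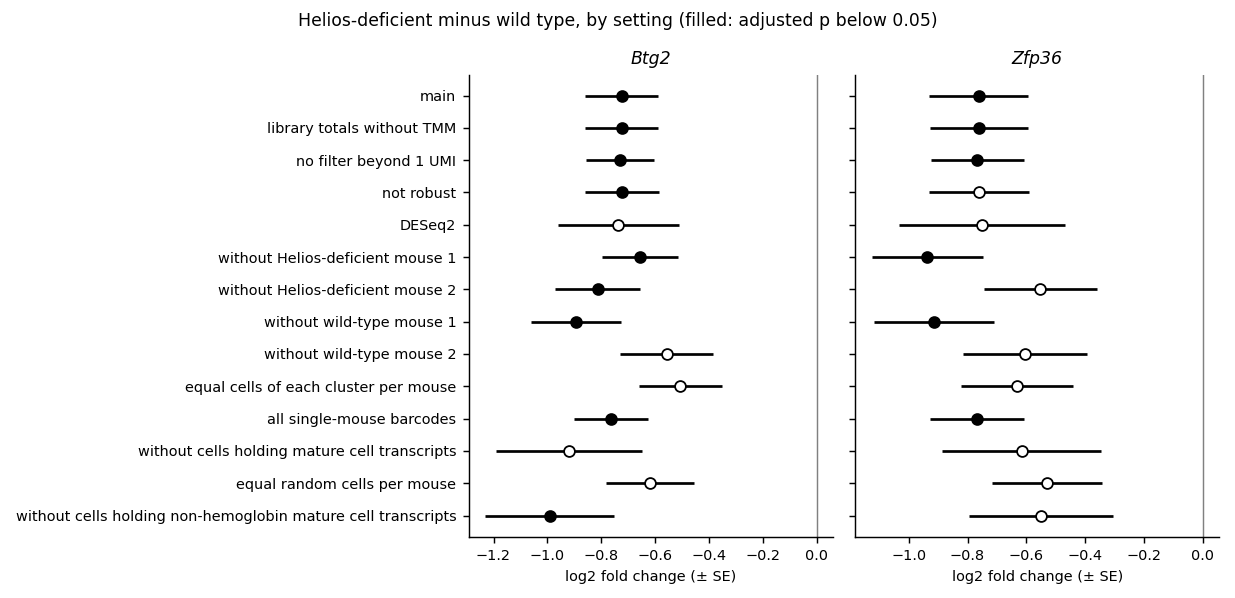
Log2 fold change (Helios-deficient minus wild type, x axis, bars ± SE) of Btg2 and Zfp36 in the reported fit (top) and 13 other settings (y axis); filled points have an adjusted p below 0.05. All points lie left of 0, while 5 points for Btg2 and 8 for Zfp36 are open.

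The Fos family subunits of AP-1 did not pass the test. Fos was at 12.6 and 6.88 CPM in the Helios-deficient pair, against 8.14 and 6.58 CPM in the wild-type pair. The higher mean came from Helios-deficient mouse 1, whose partner lay between the wild-type mice. The log2 fold change was 0.34 (SE 0.25, edgeR adjusted p = 0.718), and it was −0.11 without that mouse and 0.76, with an adjusted p of 0.0334, without Helios-deficient mouse 2. Fosb was at 1.40, 2.02, 1.36 and 0.598 CPM, from 44 UMIs in all 4 mice, and was not called (0.79, SE 0.49, edgeR adjusted p = 0.643).

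The Jun family subunits were also not called. Jun was at 39.97 and 30.03 CPM in the Helios-deficient pair, against 36.9 and 39.9 CPM in the wild-type pair (log2 fold change −0.15, SE 0.12). Junb was at 57.9 and 41.3 CPM against 55.0 and 55.2 CPM (−0.17, SE 0.13). Jund was at 120.4 and 97.8 CPM against 109 and 104 CPM (0.03, SE 0.09). In each of the 3 genes Helios-deficient mouse 1 was above mouse 2, and the wild-type mice lay between them. As a ratio the gap was widest for Junb, which passed at −0.42 (adjusted p = 0.00654) when Helios-deficient mouse 1 was left out.

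Of the other transcription regulators, Egr1, a zinc finger factor, was at 6.11 and 3.44 CPM in the Helios-deficient pair, and 5.43 and 4.06 CPM in the wild-type pair (−0.06, SE 0.29). Klf6, of the Krüppel-like zinc finger family, was at 12.6 and 16.9 CPM against 15.1 and 13.4 CPM (0.07, SE 0.16). Ier2, a small nuclear protein induced by growth factors, was at 100 and 93.9 CPM against 108 and 101 CPM (−0.11, SE 0.08), and its pairs did not overlap although its edgeR adjusted p was 0.678.

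**Figure D2:**
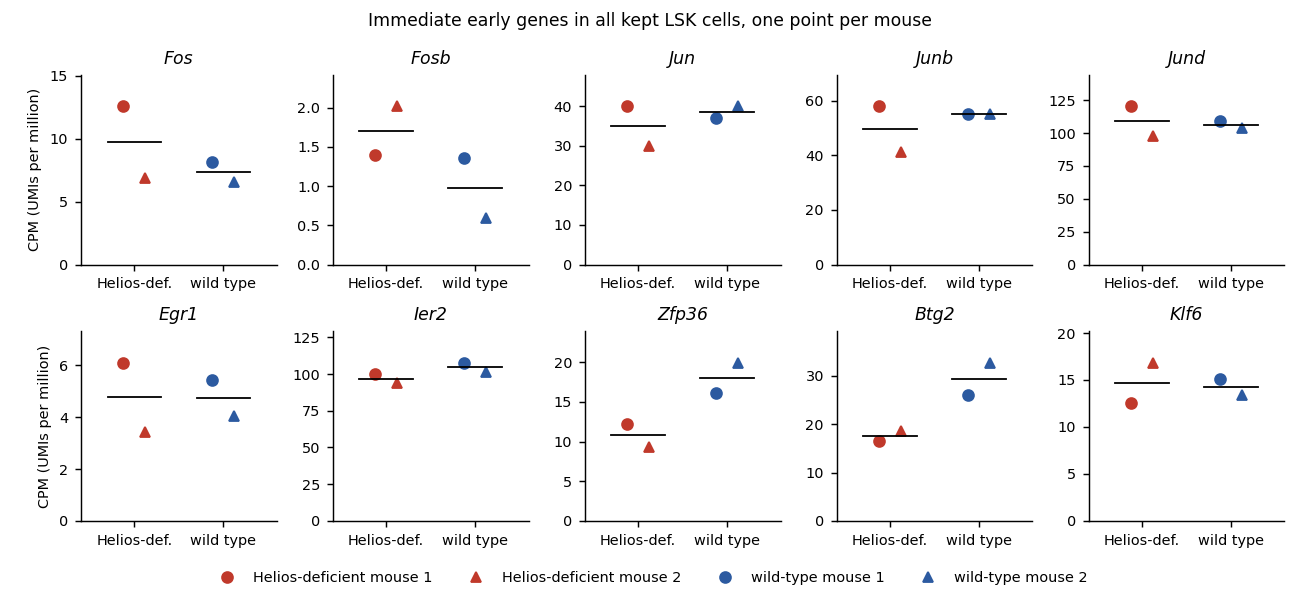
Level of each immediate early gene (y axis, CPM) in all kept LSK cells of the 4 mice, by genotype (x axis); points are mice and lines genotype means. Btg2 and Zfp36 passed the test. The mice of the 2 genotypes also separate for Ier2 and Fosb, which did not pass. Separation of 2 mice from 2 is weak evidence, since an exact permutation test cannot go below 0.333. How many of all genes separate in this way was not counted.

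Other measures differed between the same mice. Cells of the lymphoid-primed-like cluster described further on, where Btg2 had its highest level, made up 9.69% and 13.2% of the Helios-deficient cells and 18.7% and 21.3% of the wild-type cells. The median share of UMIs from cell cycle genes was 0.488% and 0.468% in the Helios-deficient pair, and 0.370% and 0.397% in the wild-type pair. None of 41 S phase and 51 G2/M phase genes was called, with 10 and 26 of them at an unadjusted edgeR p below 0.05, as were 10.4% of all genes tested. The summed mature cell transcripts were at 401 and 389.9 CPM against 484 and 516 CPM, and Cpa3, a mast cell protease gene, was the 1 of 17 tested genes of that list that fell (−0.59, edgeR adjusted p = 0.0336), while Mcpt8, of basophils, was at 7.85 and 7.24 against 4.36 and 2.99 CPM (1.01, adjusted p = 0.0627). Nkg7 alone, at 236 and 235 against 279 and 252 CPM, made up a large part of each of these sums. Of the defining markers, Cd3e and Ly6g had 0 UMIs. With equal numbers of cells of each cluster, 546 per mouse, Btg2 was at −0.51 (adjusted p = 0.153) and Zfp36 at −0.63 (0.152). With 546 cells per mouse drawn without regard to cluster, they were at −0.62 (0.119) and −0.53 (0.337). Without cells holding 2 or more UMIs of mature cell transcripts, which left 1204 of 3470 cells, they were at −0.92 (0.0965) and −0.62 (0.378). Nkg7 counts toward this filter, and whether the cells taken out were mature cells was not tested. The part of cell cycle share in the 2 calls was not tested.

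The related genes were read from lists. In the BTG and TOB family, Btg2 fell and the other 4 tested genes did not pass: Tob1 was at 13.4 and 17.6 against 23.0 and 23.9 CPM (−0.57, SE 0.14, edgeR adjusted p = 0.0638), Btg1 at −0.20 and Tob2 at −0.20. Of 10 tested genes in the ZFP36 family and its decay partners, Zfp36 and Zfp36l2 fell. Zfp36l2, a paralog of Zfp36 that also binds AU-rich elements, was at 465 and 405 CPM in the Helios-deficient pair, and 553 and 536 CPM in the wild-type pair (−0.32, SE 0.06, adjusted p = 0.0194). The deadenylase subunits Cnot6l (−0.18) and Cnot2 (−0.14) did not pass. Of 4 tested messengers known to be bound by tristetraprolin, 1 fell, the chemokine Ccl3, at 15.7 and 16.9 against 24.1 and 30.4 CPM (−0.73, SE 0.14, adjusted p = 0.0120). Ccl4 (−0.42), Mcl1 (−0.19) and Ier3 (−0.06) did not pass.

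Among 27 tested other immediate early genes, 1 fell and none rose, with a median of −0.09. The gene that fell was Dusp2, a phosphatase that switches off ERK, at 94.6 and 82.9 CPM against 127 and 124 CPM (−0.51, SE 0.08, edgeR adjusted p = 0.00145). Rhob (−0.51, adjusted p = 0.0683), Cebpd (0.54, 0.233) and Nr4a2 (1.01, 0.353) came next by p and did not pass. Dusp2 was also the 1 of 11 feedback inhibitors that fell. None of the 12 bZIP partners of AP-1, 19 kinases and ternary complex factors, or 12 KLF family genes tested was called. At an unadjusted edgeR p below 0.05 there were 1, 3 and 0 such genes, beside 10.4% of all genes. Of the heat shock and dissociation stress list, the heat shock genes Hspe1 (0.19), Hsp90aa1 (0.21) and Hspd1 (0.17) did not pass.

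To ask where in the compartment the genes are used, cells were divided within each mouse by their antibody tags. Tag counts were cut into 3 equal ranges of cells, and cells in the lowest range for CD48 and the highest for CD150 formed the stem gate (386 cells), the surface pattern known for hematopoietic stem cells. The other gates were CD48-low CD150-low (784 cells), CD48-high CD150-high (782), and the remaining cells, split at their median Flt3 tag into Flt3-low (819) and Flt3-high (699). The tags used no RNA, so RNA levels could be tested between gates, with mouse as a block. Between the stem and Flt3-high gates messenger RNA followed the tags. Cd48 was at 4.81 to 9.77 CPM in the stem gate and at 245 to 257 CPM in the Flt3-high gate. Slamf1 (CD150) was at 16.0 to 34.9 and 1.27 to 3.18 CPM, and Flt3 at 16.9 to 33.4 and 142 to 214 CPM. The CD48-high CD150-high gate had the same median CD150 tag as the stem gate, 108 UMIs, but Slamf1 at 6.40 to 8.19 CPM. The Flt3 tag separated its 2 gates weakly, with medians of 44 and 33 tag UMIs. Flt3 messenger RNA was at 96.7 to 180 CPM in the Flt3-low gate. In Helios-deficient mouse 2 it was higher in Flt3-low than in Flt3-high, 157 against 142 CPM, and in the other mice lower.

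The stem gate differed from the Flt3-high gate in 5 of the 9 genes tested, and in both directions. Egr1, Klf6, Jund and Ier2 were higher in the stem gate and Btg2 was lower. Over all genes, 2040 of 9918 were called (20.6%), 1009 higher (10.2%) and 1031 lower (10.4%). The median log2 difference of the 9 genes was 0.30, beside −5e-05 over all genes.

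Btg2 was the gene that was lower. In the stem gate it was at 5.68 and 4.81 CPM in the Helios-deficient pair, against 4.34 and 21.4 CPM in the wild-type pair. In the Flt3-high gate the same mice had 18.6, 27.1, 30.8 and 45.1 CPM. Each mouse was lower in its stem gate, and wild-type mouse 2 stood apart within both. The log2 difference was −1.82 (SE 0.27, edgeR adjusted p = 9e-08), from 27 UMIs in the stem gate and 241 in the Flt3-high gate, and it was −2.47 without wild-type mouse 2. The mean level ran from 9.06 ± 8.24 CPM in the stem gate through 16.7 ± 5.19 in CD48-low CD150-low, 23.8 ± 8.22 in CD48-high CD150-high and 26.7 ± 9.24 in Flt3-low to 30.4 ± 11.03 in Flt3-high (SD, n = 4 mice), and neighbours in this order lay within each other's spread.

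Egr1 was at 3.78 and 3.61 CPM in the stem gate of the Helios-deficient pair, against 19.5 and 13.4 CPM in that of the wild-type pair. In the Flt3-high gate it was at 5.97, 1.48, 2.53 and 2.12 CPM. It was higher in the stem gate in 3 of 4 mice, with Helios-deficient mouse 1 the exception. The log2 difference was 1.89 (SE 0.43, edgeR adjusted p = 0.000402), from 33 and 22 UMIs. Without either wild-type mouse Egr1 was too sparse to enter the test, and with gates set on each tag's share of a cell's tag UMIs it was at 0.97 with an adjusted p of 0.0673.

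Klf6 was at 17.0 and 25.3 CPM in the stem gate of the Helios-deficient pair, against 27.2 and 26.7 CPM in that of the wild-type pair. In the Flt3-high gate it was at 10.6, 14.3, 13.9 and 11.1 CPM, so that every stem gate value lay above every Flt3-high value (log2 difference 0.92, SE 0.23, edgeR adjusted p = 0.00112). Jund was at 138, 129, 167 and 126 CPM in the stem gates and 102, 87.3, 91.5 and 102 CPM in the Flt3-high gates (0.54, SE 0.10, adjusted p = 7.9e-06). Ier2 was at 98.4, 132, 149 and 112 CPM and at 92.9, 82.3, 89.4 and 97.5 CPM (0.44, SE 0.10, adjusted p = 0.000197). The stem gate values of both genes lay above all Flt3-high values.

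The other AP-1 subunits and Zfp36 were not called between these gates. Jun differed by −0.16 (SE 0.18), Junb by 0.30 (SE 0.32), Fos by 0.16 (SE 0.33) and Zfp36 by −0.26 (SE 0.27). Fos in the stem gate ranged from 1.204 to 18.9 CPM over the mice on 32 UMIs, and Fosb, with 5 UMIs there, was not tested. The Jun family was thus split, with Jund called and its paralogs Jun and Junb not. Whether Jund differed from them was not tested.

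The same 5 genes passed in the same directions against the Flt3-low gate (1768 of 9918 genes called, 17.8%) and against the CD48-high CD150-high gate (1659, 16.7%). These contrasts share the stem gate. Against CD48-low CD150-low cells, where 660 genes were called (6.65%), none of the 9 was. There 2 of the 9 genes had an unadjusted edgeR p below 0.05, a share near the 17.7% of all genes. These were Btg2 (−0.91, adjusted p = 0.0748) and Egr1 (1.05, adjusted p = 0.121).

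**Figure D3:**
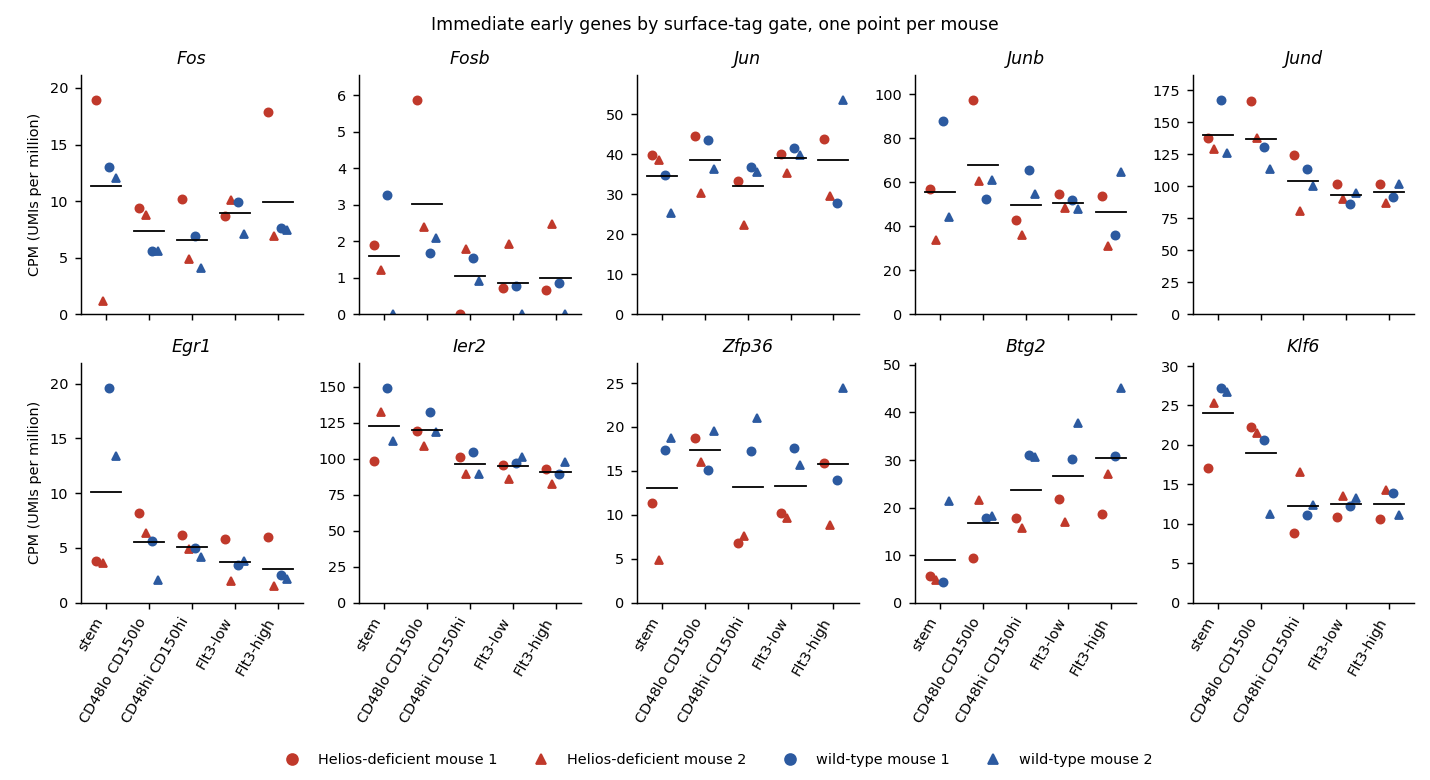
Level of each immediate early gene (y axis, CPM) in 5 surface-tag gates (x axis); points are mice and lines means of 4 mice. Jund, Ier2 and Klf6 are highest on average in the stem gate and Btg2 is lowest there, while Jun stays near 32 to 39 CPM on average in all gates.

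Other measures moved with the gates. The median share of cell cycle UMIs was 0.303% in the stem gate and 0.606% in the Flt3-high gate, with 28 of 41 S phase genes and 21 of 50 G2/M genes lower in the stem gate and none higher. Median UMIs per cell were 6902.5 and 9552. Mature cell transcripts were lower too, with 4 of 14 tested genes called. Of 12 heat shock and dissociation stress genes, Hspa8 (−0.29), Hsp90ab1 (−0.22), Hspd1 (−0.23), Dnaja1 (−0.18) and Hsp90aa1 were lower in the stem gate, and Nfkbia, the NF-kB inhibitor, was higher (0.77, SE 0.09, edgeR adjusted p = 9.2e-12). The part of these measures in the differences between gates was not tested.

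The lists around the 10 genes were read in the same contrast, in which 20.6% of all genes were called, 10.2% higher and 10.4% lower. Of 19 tested other immediate early genes, Klf10 (0.67), Ppp1r15a (1.203) and Maff (1.53) were higher in the stem gate, and Myc (−0.67) and Cebpd (−1.50) were lower. The KLF family had 3 of 10 genes higher, Klf9 (1.24), Klf10 and Klf6, and none lower. In the BTG and TOB family Btg2 was the 1 of 5 genes that was called. Zfp36l2 was higher in the stem gate (0.36, SE 0.05, edgeR adjusted p = 5.3e-08) and the deadenylase Cnot6 lower (−0.49). Among the messengers bound by tristetraprolin, Ccl3 was lower (−2.56), as 1 of 4. Of the kinases and their targets, Mapk3, which encodes ERK1, was higher (0.43) and Rps6ka3, an ERK-activated kinase, lower (−0.69), 2 of 19 genes. The feedback inhibitor Spred1 was higher (0.68), 1 of 9, and Maff and Mafg (0.37) were the 2 of 10 AP-1 partners that were called.

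Within single gates none of the genes was called between genotypes by edgeR. At an unadjusted p below 0.05 there were 3 of 8 tested in the stem gate, 2 of 8 in CD48-low CD150-low, 4 of 9 in CD48-high CD150-high, 2 of 8 in Flt3-low and 2 of 8 in Flt3-high, against 5.38%, 6.09%, 9.56%, 8.35% and 6.6% of all genes tested. The adjusted calls over all genes were 4 (0.0538%), 35 (0.393%), 29 (0.3%), 54 (0.565%) and 34 (0.362%) in the same order. The lowest adjusted p-values were those of Btg2 in the Flt3-low gate (−0.82, SE 0.23, edgeR adjusted p = 0.0519) and Zfp36 in the CD48-high CD150-high gate (−1.38, SE 0.29, adjusted p = 0.0601). In that gate Zfp36 was at 6.82 and 7.58 CPM in the Helios-deficient pair, against 17.2 and 21.0 CPM in the wild-type pair, and in CD48-low CD150-low cells at 18.7 and 16.0 against 15.1 and 19.6 CPM. With gates set on tag shares, Btg2 passed in the stem gate (−1.36, adjusted p = 0.0194) and Zfp36 in the Flt3-low gate (−1.16, adjusted p = 0.0355). Leaving out a mouse also made calls: Junb in the stem gate (−1.05, edgeR adjusted p = 0.0468) and the CD48-high CD150-high gate (−0.76, 0.0239) without wild-type mouse 2, Junb in CD48-low CD150-low (0.77, 0.0431) and Btg2 in Flt3-high (−0.99, 0.0272) without Helios-deficient mouse 2, and Zfp36 in CD48-high CD150-high (−1.52, 0.0185) without wild-type mouse 1.

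Egr1 in the stem gate, at 3.78 and 3.61 against 19.5 and 13.4 CPM, rested on 2 and 3 UMIs in the Helios-deficient pair, and 18 and 10 in the wild-type pair. Its log2 fold change was −2.16 (SE 0.64, edgeR adjusted p = 0.442). The genotype effect was also compared between the stem gate and each other gate in 1 fit. None of 9 genes was called in any of the 4 contrasts, with 3, 2, 1 and 1 of them at an unadjusted p below 0.05 against CD48-low CD150-low, CD48-high CD150-high, Flt3-low and Flt3-high, beside 4.8%, 5.33%, 5.03% and 5.03% of all genes. Over all genes 1 of 10149 (0.00985%) was called in each of the first pair of contrasts and 0 (0%) in the others, where 510 and 511 genes had an unadjusted edgeR p below 0.05.

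States were also read from RNA. Cells were clustered with the 10 genes, the listed immediate early and heat shock genes, the cell cycle lists and the genes called between genotypes left out of the clustering, and clusters were named from marker lists. This gave interferon-active-like (947 cells), myeloid-primed-like (698), lymphoid-primed-like (578), HSC-like (394) and erythroid-primed-like cells (296), and 4 unnamed clusters. The HSC-like cluster had 15 enriched stem cell markers, but Igkc, Ighm and Cd74, genes of B cells, also led it, and erythroid-primed-like cells also carried 11 megakaryocyte markers. Mitotic genes such as Ube2c and Cenpf led cluster 6 (150 cells). Since the clusters come from RNA of the same cells, levels across them are given as a description, for the 8 clusters with 130 or more cells.

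Btg2 was highest in lymphoid-primed-like cells, at 29.1 and 43.5 CPM in the Helios-deficient pair, and 66.2 and 75.2 CPM in the wild-type pair. Cluster 7 had the next highest mean and the opposite genotype order, at 44.9 and 40.3 against 25.2 and 21.0 CPM on 33 UMIs. In cluster 5 Btg2 was at 19.4 and 11.2 against 26.6 and 43.9 CPM, and in cluster 6 at 19.6 and 14.1 against 23.2 and 33.1 CPM. Genotypes were not tested within these 3 clusters. In myeloid-primed-like cells it was at 7.29, 9.14, 14.6 and 9.35 CPM, and in HSC-like cells at 1.87, 9.62, 13.3 and 31.1 CPM. All 4 mice had more in lymphoid-primed-like than in HSC-like cells, by 39.5 ± 11.3 CPM (SD, n = 4 mice). The order of the other named states was interferon-active-like (23.7 ± 3.30 CPM), then erythroid-primed-like (21.0 ± 6.998), which lay within each other's spread.

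Klf6 had a different order. It was at 26.2 to 42.3 CPM in HSC-like cells and at 21.7 to 36.8 CPM in the mitotic cluster 6, and these overlapped. Cluster 7 (15.8 ± 2.82 CPM), interferon-active-like (15.6 ± 3.50) and lymphoid-primed-like cells (15.5 ± 1.83) followed within each other's spread, then cluster 5 (12.9 ± 7.38) and erythroid-primed-like (9.35 ± 3.39), and myeloid-primed-like cells were lowest at 3.74 to 9.14 CPM. Jund was at 178 to 191 CPM in HSC-like cells and at 32.5 to 56.3 CPM in cluster 6, and Ier2 at 135 to 169 and 56.3 to 72.0 CPM. Egr1 was at 3.61 to 18.1 CPM in HSC-like cells and had 1 UMI in the whole of cluster 6. Cluster 6 was thus low for Jund, Ier2 and Egr1 and high for Klf6.

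Jun stood highest in cluster 7 (130 cells, led by histone genes), at 55.9 to 74.9 CPM, and lowest in myeloid-primed-like cells, at 22.4 to 30.6 CPM. Junb was at 56.5 to 87.0 CPM in HSC-like and at 58.8 to 88.8 CPM in cluster 5 (led by Notch2), which overlapped, and at 21.2 to 38.1 CPM in cluster 6. Fos ranged from 7.22 to 27.8 CPM in HSC-like cells and from 1.62 to 4.57 CPM in erythroid-primed-like cells. Of the 44 Fosb UMIs, 13 were in HSC-like, 13 in interferon-active-like and 12 in myeloid-primed-like cells. Zfp36 was at 12.8 to 26.1 CPM in interferon-active-like and at 9.69 to 33.8 CPM in lymphoid-primed-like cells, and at 1.62 to 13.6 CPM in erythroid-primed-like cells.

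**Figure D4:**
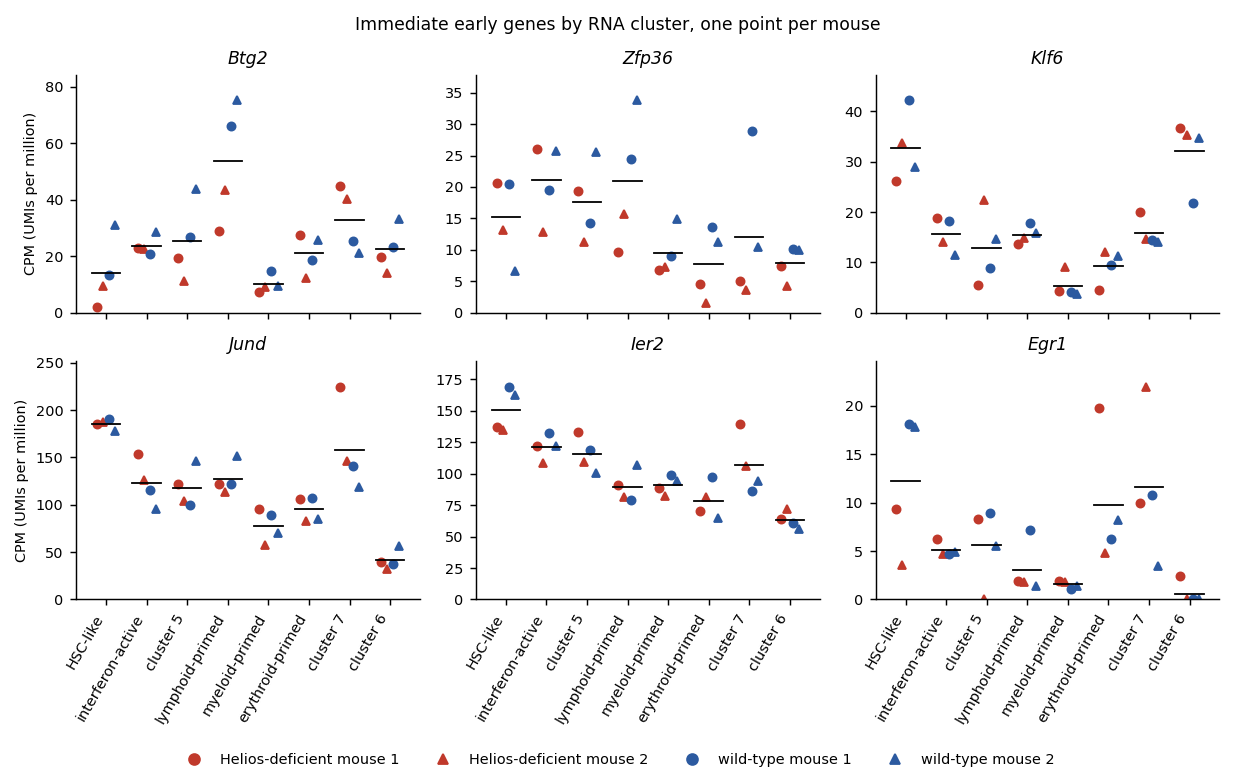
Level (y axis, CPM) of 6 immediate early genes in 8 RNA clusters (x axis); points are mice and lines means of 4 mice. Btg2 peaks in lymphoid-primed-like cells, Klf6 in HSC-like cells and cluster 6, and Jund and Ier2 are on average highest in HSC-like cells and lowest in cluster 6.

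Genotypes were compared within the 4 clusters that held 50 or more cells of every mouse, a comparison added after the data were seen. In lymphoid-primed-like cells Btg2 fell, the 1 gene called of 8 tested, with 136 of 8377 genes called (1.62%). The log2 fold change was −0.85 (SE 0.21, edgeR adjusted p = 0.0262), and it was −0.67 (adjusted p = 0.168) without Helios-deficient mouse 1, which gave 54 of these cells, and −0.76 (0.131) without wild-type mouse 2. Without wild-type mouse 1, Zfp36 (−1.27, adjusted p = 0.0346) and Junb (−0.81, 0.0368) passed there as well. Zfp36 was at 9.69 and 15.7 CPM against 24.4 and 33.8 CPM there (−1.05, SE 0.33, adjusted p = 0.114). In interferon-active-like cells (23 of 9331 genes called, 0.246%), Btg2 was at 22.9 and 22.7 against 20.8 and 28.5 CPM (−0.08, SE 0.25). None of the genes was called by edgeR there, in myeloid-primed-like cells (37 of 9375 genes called, 0.395%) or in HSC-like cells (3 of 6948, 0.0432%), with 2 of 8, 1 of 7 and 3 of 7 at an unadjusted p below 0.05, against 5.97%, 6.39% and 5.25% of all genes tested. Whether the genotype effect on Btg2 differed between clusters was not tested.

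The levels also differed with the share of cell cycle RNA, given here as a description. Cells of each mouse were divided into 4 equal bins by the share of their UMIs from the S phase and G2/M lists. Each of the 10 genes had its highest mean in the first bin, with the lowest share. Jund was at 140.2 to 180.3 CPM there and at 56.5 to 72.7 CPM in the fourth, and Junb at 66.9 to 91.8 and 21.6 to 38.6 CPM. Btg2 was at 16.6, 27.9, 48.0 and 60.2 CPM in the first bin and at 14.7, 11.4, 15.4 and 18.9 CPM in the fourth, in the order Helios-deficient mouse 1 and 2, wild-type mouse 1 and 2. The 2 genotypes were farthest apart in the first bin, at 22.3 ± 8.03 against 54.1 ± 8.59 CPM. Zfp36 was at 21.0, 14.0, 22.7 and 34.8 CPM in the first and at 5.98, 4.45, 9.37 and 14.1 CPM in the fourth. Klf6 was at 20.3 to 31.8 CPM in the first bin, at 6.79 to 9.73 CPM in the third and at 8.85 to 18.7 CPM in the fourth, so its lowest level was not in the bin with the highest share. These are shares of a cell's RNA, and cells of the mitotic cluster 6 held a median of 14908 UMIs against 6168.5 in HSC-like cells, so a lower CPM need not be fewer molecules per cell.

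In single cells the genes were sparse. Each cell was thinned to 4000 UMIs, which left out 82 shallower cells, between 12 and 31 per mouse. A UMI of Btg2 was then found in 8.07% and 6.43% of Helios-deficient cells and in 10.4% and 11.5% of wild-type cells, and one of Zfp36 in 4.95% and 4.70% against 6.47% and 7.30%. The pairs of mice did not overlap for either gene. Before thinning the shares were 12.9% and 14.4% against 17.4% and 21.1% for Btg2, and 10.1% and 8.74% against 11.9% and 15.4% for Zfp36. With 2 mice against 2, a two-sided exact permutation test cannot go below 0.333. Shares of the other genes ran from 0.225% to 0.865% for Fosb over the mice to 32.9% to 39.3% for Jund. No cell type in the sort is known to lack these genes, so the background of free RNA was not measured.

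A cell held a UMI of 1.25 of the 10 genes on average at this depth, 27.4% of cells held none, and 26 cells (0.767%) held 5 or more. Across cells the correlations among the 10 genes were small and mostly positive. Over their 45 pairs the median Pearson correlation of log2(UMI + 1), averaged over the 4 mice, was 0.041. All pairs of detected genes had a median of 0.0004 and a 95th percentile of 0.037. Detected here means a UMI in at least 10% of thinned cells. Fosb (0.502% of cells), Egr1 (1.71%), Fos (2.83%), Zfp36 (6.02%), Klf6 (6.32%) and Btg2 (9.36%) fell below that cut. Pairs with these genes are thus set beside pairs of more widely detected genes. Fos with Fosb (0.098), Fos with Jun (0.091), Junb with Zfp36 (0.089) and Fos with Jund (0.081) were highest, and no pair reached 0.1. The Fos and Fosb value ranged from −0.0078 to 0.22 over the mice and rests on 17 UMIs of Fosb. Btg2 and Zfp36, the pair that fell between genotypes, had 0.056 (0.00095 to 0.081), and Btg2 with Klf6 0.034. The mean was positive for 39 of the 45 pairs, and for 19 of them in all 4 mice. Above the 99th percentile of the pairs of detected genes, 0.061, lay 12 pairs. After centring within RNA clusters the median was 0.037. In counts this sparse, correlations of this size are given as a description.

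**Figure D5:**
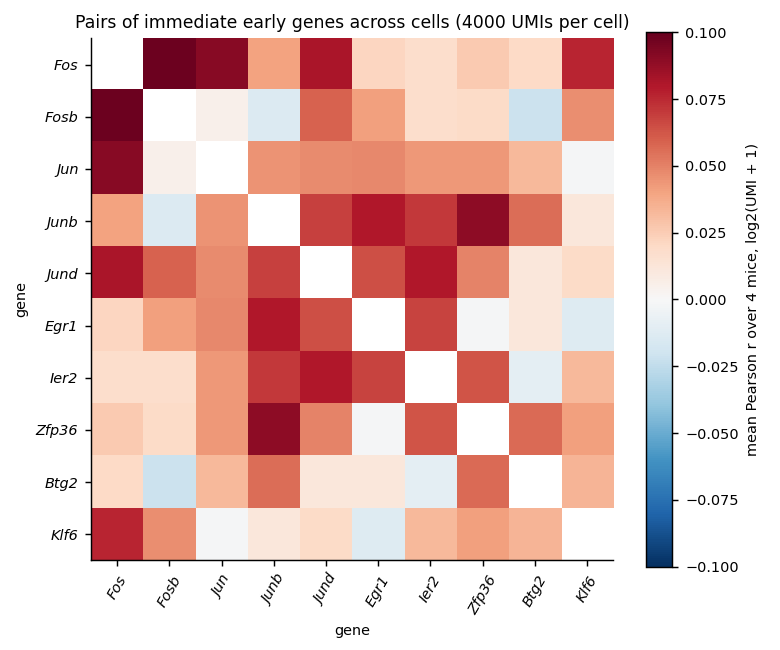
Pearson correlation across cells, averaged over 4 mice, for each pair of immediate early genes (both axes list genes, colour gives r of log2(UMI + 1) at 4000 UMIs per cell). The deepest red is Fos with Fosb at 0.098, and all 45 values lie between −0.021 and 0.098.

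The genes most like the 10 were taken by correlation with their summed UMIs over cells of a mouse. Jund (1623 UMIs) and Ier2 (1473) gave most of that sum, against 112 UMIs of Fos and 65 of Egr1. The ranking therefore leans on Jund and Ier2. The genes that ranked highest are given here. They were the nuclear RNA Malat1 (mean r over 4 mice 0.19), the mitochondrial gene mt-Co1 (0.15), the ribosomal protein genes Rps14 (0.15) and Rps27 (0.12), the lymphotoxin gene Ltb (0.15), the interferon-inducible Ifitm1 (0.14), Nfkbia (0.13), Shisa5 (0.13), the kinase gene Pim1 (0.13) and Txnip (0.13). The 99th percentile over the 4757 genes ranked was 0.084. After each value was centred within its RNA cluster, 6 of these genes, Malat1, Nfkbia, Pim1, Ltb, Ifitm1 and mt-Co1, led the list, Malat1 at 0.13 and Nfkbia at 0.10. The cells share 1 library, and depth was fixed by thinning.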

How the data were processed

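The authors deposited raw UMI counts per gene and cell, with antibody tag and hashtag counts, and per the file header the matrix was written by software version 3.0.2. Per the submitters' processing notes, Cell Ranger and Seurat 3.0.0 were used with genome build mm10. The deposited hashtag calls assigned 3842 barcodes to 1 mouse and 231 to doublets, and the deposited list of 3470 kept cells was used. Doublets of cells from 1 mouse were not looked for.

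Counts were summed per mouse, or per mouse and gate or cluster, and tested with edgeR 4.0.16 (quasi-likelihood, robust, TMM, default filter) in R 4.3.3, with DESeq2 1.42.0 as an alternative. The fits were also run on simulated counts, with a single fixed dispersion for all genes that was not estimated from these counts. No difference between mice was put into the simulated gates. The rates below hold for that setting and need not hold for the reported fits. At a log2 change of 0.75, 74.5% and 70% of changed genes were recovered between genotypes in 2 draws. Between the stem and Flt3-high gates 46.4% and 55.2% were recovered. False calls made up 3.5% to 6.08% of the calls. CPM is the count over the mouse's total UMIs. Clusters came from Pearson residuals of 1500 genes, 30 components, 20 neighbours and Leiden resolution 0.5 (scanpy 1.11.5). Naming a cluster took 3 or more markers with 2-fold enrichment and detection in 10% of its cells. The genes, gene lists and tests were chosen with earlier results of these data known. Named beside the 10 genes were the 10 most correlated genes, up to 4 per list by genotype p, and up to 4 listed genes per direction between gates. Alternatives covered tool, filter, scaling, gates, depth, cells and each mouse left out. Some results are not reported here.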

Additional observations from a re-analysis of the deposited data

How the results depend on the processing

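Of the alternatives run, those below moved a count or turned a direction, and the cause was not tested. Of the 10 genes, 2 were called between genotypes. That count was 1 without robust estimation and 0 with DESeq2 (2 at an unadjusted p below 0.05), and 0 with equal cells of each cluster or without cells holding mature cell transcripts. Among settings added after the data were seen, it was 0 with equal random cells and 1 without non-hemoglobin mature cell transcripts. Leaving out a mouse gave 0 to 3, with 0 without wild-type mouse 2. The 92 genes called over all genes became 296 with no filter, 57 without robust estimation, 33 with DESeq2, 144 with all single-mouse barcodes, 184 and 266 without the 2 kinds of mature transcripts, 60 with equal random cells, and 126 to 565 with a mouse left out, where a lone mouse is assumed to vary like the other genotype. Within gates the 0 calls became 2 with gates on tag shares and 0 to 2 with a mouse left out. Within clusters the 1 call became 0 to 3.

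Genotype directions turned for Fos (−0.19 without mature cell transcripts), Jun (0.019 without non-hemoglobin ones), Jund (−0.010 with equal cells of each cluster and −0.014 with equal random cells), Egr1 (0.14 with equal random cells) and Klf6 (−0.096 and −0.010 in those 2). With a mouse left out, the log2 fold changes ran from −0.11 to 0.76 for Fos, −0.35 to 0.061 for Jun, −0.42 to 0.075 for Junb, −0.12 to 0.18 for Jund, −0.48 to 0.35 for Egr1 and −0.19 to 0.23 for Klf6. Between the stem and Flt3-high gates Fos was at −0.61 with tag shares, and with a mouse left out Fos ran from −0.10 to 0.45, Jun from −0.33 to 0.17 and Junb from −0.20 to 0.61. The 5 calls there held in the other settings, except for Egr1 as given. The mean share of cells with a UMI of any of the 10 genes, 72.8%, was 51.4% at 2000 UMIs and 91.1% unthinned, and the median pair correlation was 0.024 at 2000 UMIs.

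No paired analysis was possible because mice of the 2 genotypes share no number or litter in the labels. Fosb had 44 UMIs in all and was tested in no gate in the reported fits.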

Other observations

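The barcodes that the authors left out were also read. Among barcodes with a single-mouse call outside the kept list, 56, 109, 75 and 64 per mouse had a mitochondrial share of 5% or more. In these, Ier2 stood at 133, 133, 152 and 164 CPM in Helios-deficient mouse 1 and 2 and wild-type mouse 1 and 2, against 100, 93.9, 108 and 101 CPM in the kept cells, so all 4 mice were above their kept cells. Junb was at 85.3, 66.3, 79.9 and 57.2 CPM against 57.9, 41.3, 55.0 and 55.2 CPM. The Ier2 values rest on 14, 32, 19 and 23 UMIs and the Junb values on 9, 16, 10 and 8. In the other left-out barcodes, 12 to 23 per mouse, Ier2 was at 44.3, 54.4, 119 and 76.8 CPM, below the kept cells in 3 of 4 mice. Fos had 5 UMIs, Egr1 1 and Fosb 0 in all of these barcodes, and Btg2 10 and Zfp36 7, too few to compare. With a share of mitochondrial UMIs this high, CPM of other genes is measured against a smaller remainder.

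At 4000 UMIs per cell, the counts lay in few cells. For Fos, the top 1% of cells, 34 cells, held 44.6% of its 112 UMIs. The same share was 63.1% of 65 UMIs for Egr1, 24.8% of 226 for Zfp36, 21.1% of 380 for Btg2 and 8.49% of 1473 for Ier2. The variance of the UMI count over its mean was 1.38 for Fos, 1.38 for Junb, 1.37 for Jund and 1.35 for Jun, and lower for the others, so Fos did not stand apart by that measure. At low counts a few cells hold most UMIs in any case.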
